A study of Mus musculus with 8 samples.

Results

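10 genes were examined in cells sorted from injured and uninjured mouse kidneys: Wdfy4 and 9 genes by which dendritic cells are commonly told from other leukocytes, namely Flt3, Zbtb46, Xcr1, Clec9a, Cd209a, Itgax, Batf3, Irf4 and Irf8. Wdfy4 was chosen by its difference between the 2 groups in an earlier look at these data, and the other 9 were named for their known role, also with earlier results in view. Of the 10 genes, 9 had a probe set and are described here, among 18193 genes measured in all. Clec9a was not listed among the probe sets with 1 gene symbol and was not analysed here.

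Dendritic cells take up antigen and show it to T cells. The conventional type 1 cells (cDC1) depend on the transcription factors Irf8 and Batf3, carry Xcr1 and Clec9a, and present antigen from dead cells on MHC class I. The conventional type 2 cells (cDC2) depend more on Irf4 and carry C-type lectins such as Cd209a, and plasmacytoid cells make type I interferon. In the kidney, cells that express Itgax (the integrin chain CD11c) form a network between the tubules, and many of them share genes with macrophages. Wdfy4 is a large BEACH domain protein that mouse cDC1 need for cross-presentation, and B cells express it too.

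The cells were GFP-positive cells sorted from kidneys of mice of the transgenic strain FSP1-eGFP on a C57BL/6 background, labelled male and 6 months old, in which the FSP1 (S100a4) promoter drives GFP. In the ischemic group (5 kidneys) blood flow to the left kidney had been stopped for 45 minutes by a clamp on its artery and vein, and the kidney was taken 3 days later, and the normal group (3 kidneys) is called both sham and non-ischemic control in the labels. Buprenorphine was given after surgery. S100a4 is known from leukocytes as well as fibroblasts, so the reporter need not mark fibroblasts alone in either group. The labels do not say whether the normal kidneys came from separate animals, so p values measure only the spread between these samples, which may be technical. All levels are log2(intensity + 16) after quantile normalization, a scale on which a deposited intensity of 1 becomes 4.09, and differences are ischemic minus normal on that scale, which understates changes of dim genes.

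Several arrays stood apart or went against their labels. Across genes, ischemic 1 correlated with the remaining arrays at a median of 0.753, and that median lay between 0.850 and 0.913 for each of the rest. Xist, the RNA that coats the silenced X in female cells, was high in ischemic 1 (11.21), ischemic 2 (9.39) and normal 1 (11.01) and lay between 4.49 and 4.96 in the other 5 arrays, although all mice are labelled male. The Y-linked gene Eif2s3y was measured at 5.84 in ischemic 1, 7.78 in ischemic 2 and 5.84 in normal 1, and between 7.68 and 8.87 in the other 5. S100a4 was bright in all arrays (11.53 to 12.22 in ischemic and 11.30 to 11.94 in normal arrays). Of 9 fibroblast markers, 6 lay above the 95th percentile of the 39 olfactory receptor genes on the array (5.75), a family used here as a gauge of background. The brightest fibroblast markers were Thy1 (7.23 over the 8 arrays) and Col1a2 (7.17). Thy1 was highest in ischemic 1 (8.21) and normal 1 (7.94), where the mean of 9 T and NK cell markers was also highest (7.11 and 6.93). Below the percentile lay Dcn (5.65), Pdgfra (5.43) and Lum (4.51), these 3 named after their values were seen. The macrophage gene Lyz2 averaged 12.57 ± 0.24 in ischemic arrays (SD, n = 5), against 12.19 ± 0.26 in normal arrays (SD, n = 3). Cd74, the invariant chain of MHC class II, averaged 12.37 ± 0.30 in ischemic arrays (SD, n = 5), against 12.40 ± 0.28 in normal arrays (SD, n = 3).

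The sequences around annotated starts of 4 of the genes are shown as promoter windows. Wdfy4 was taken because its ischemic arrays all lay above the normal ones, and Irf8 because its difference was next largest. Itgax and Cd209a were taken as bright marker genes whose groups overlapped. The windows are RefSeq sequences of build GRCm38.p6, read 5′ to 3′ on the gene's strand. Each has 300 bases and begins 250 before a start, and all 10 genes had such a window. Capitals mark matches to 3 motifs searched on both strands: the core bound by Ets factors such as PU.1 (GAGGAA), the Ets-Irf composite element (GGAA and GAAA with any 2 bases between) and the AP-1 element (TGANTCA).
Wdfy4, chr14:33185017-33185316, minus strand: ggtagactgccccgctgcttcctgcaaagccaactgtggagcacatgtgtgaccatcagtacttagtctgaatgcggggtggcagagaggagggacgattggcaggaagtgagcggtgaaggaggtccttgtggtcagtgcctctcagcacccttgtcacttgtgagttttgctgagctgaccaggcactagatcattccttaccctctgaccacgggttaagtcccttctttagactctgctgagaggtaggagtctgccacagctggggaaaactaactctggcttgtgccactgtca
Irf8, chr8:120736108-120736407, plus strand: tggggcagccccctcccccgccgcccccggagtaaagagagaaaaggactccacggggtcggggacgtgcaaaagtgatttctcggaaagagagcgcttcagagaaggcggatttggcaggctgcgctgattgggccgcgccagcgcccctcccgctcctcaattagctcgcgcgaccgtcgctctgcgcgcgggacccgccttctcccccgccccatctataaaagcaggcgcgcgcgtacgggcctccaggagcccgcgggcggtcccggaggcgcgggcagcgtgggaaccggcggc
Itgax, chr7:128129300-128129599, plus strand: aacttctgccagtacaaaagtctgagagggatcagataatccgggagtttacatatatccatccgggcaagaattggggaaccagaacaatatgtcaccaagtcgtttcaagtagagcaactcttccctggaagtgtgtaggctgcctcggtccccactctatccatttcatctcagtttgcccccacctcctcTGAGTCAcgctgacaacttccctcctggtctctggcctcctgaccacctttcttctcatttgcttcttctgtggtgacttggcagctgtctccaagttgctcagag
Cd209a, chr8:3748935-3749234, minus strand: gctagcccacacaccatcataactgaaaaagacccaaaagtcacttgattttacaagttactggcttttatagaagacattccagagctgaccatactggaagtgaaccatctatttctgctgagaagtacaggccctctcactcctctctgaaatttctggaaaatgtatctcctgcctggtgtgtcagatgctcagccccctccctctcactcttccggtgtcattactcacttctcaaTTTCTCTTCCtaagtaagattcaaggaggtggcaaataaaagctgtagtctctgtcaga
The Wdfy4 window lies at a start 8789 bases inside the gene's outermost 5′ end, and neither it nor the Irf8 window held a match to any of the 3 motifs. Itgax held an AP-1 match from 56 to 50 bases before the start, and Cd209a an Ets-Irf composite match that ends on the start base. Among the other windows, Zbtb46 held an AP-1 match, and Batf3 and Irf4 an Ets core match each. The Zbtb46 window lies at a start 68874 bases inside the gene's outermost 5′ end. Of all 32851 windows of this length, 28.3% held the Ets core, 2.72% the composite and 7.81% the AP-1 element, so these matches describe the letters only, and no match overlapped another.

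Among the 9 measured genes, Wdfy4 was the only gene with every ischemic array above every normal array, while the genes that define dendritic cells had overlapping groups or lay near background. The Wdfy4 levels were 9.11, 9.005, 9.12, 9.28 and 8.53 in ischemic arrays 1 to 5, against 7.60, 8.14 and 8.07 in normal arrays 1 to 3. Its lowest ischemic value, in ischemic 5, was above its highest normal value, in normal 2. Ischemic arrays averaged 9.01 ± 0.29 (SD, n = 5) and normal arrays 7.94 ± 0.30 (SD, n = 3), a difference of 1.07 ± 0.25 (SE), or 2.10-fold on this scale. The deposited intensities ran from 358.67 to 606.33 in ischemic and from 178.08 to 302.09 in normal arrays. As Wdfy4 was picked for this difference, the values are a description and carry no test. In RNA of sorted cells in bulk, a different number of cells of a type and a different amount of RNA per cell cannot be told apart.

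Over all 18193 genes, 1.89% had every ischemic array above every normal array and 3.44% the reverse, and 54.8% had a difference above 0. Among the 9 genes these counts were 1 (Wdfy4), 1 (Xcr1) and 5. The first count was 2 without normal 3, and the last was 3 without normal 1. With limma, 0 of 18193 genes (0%) had an adjusted p under 0.05, so none of the 9 genes passed, Wdfy4 included. An unadjusted p under 0.05 was found for 1297 genes. The median difference was 0.20 over the 9 genes and 0.041 over all genes.

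**Figure D1:**
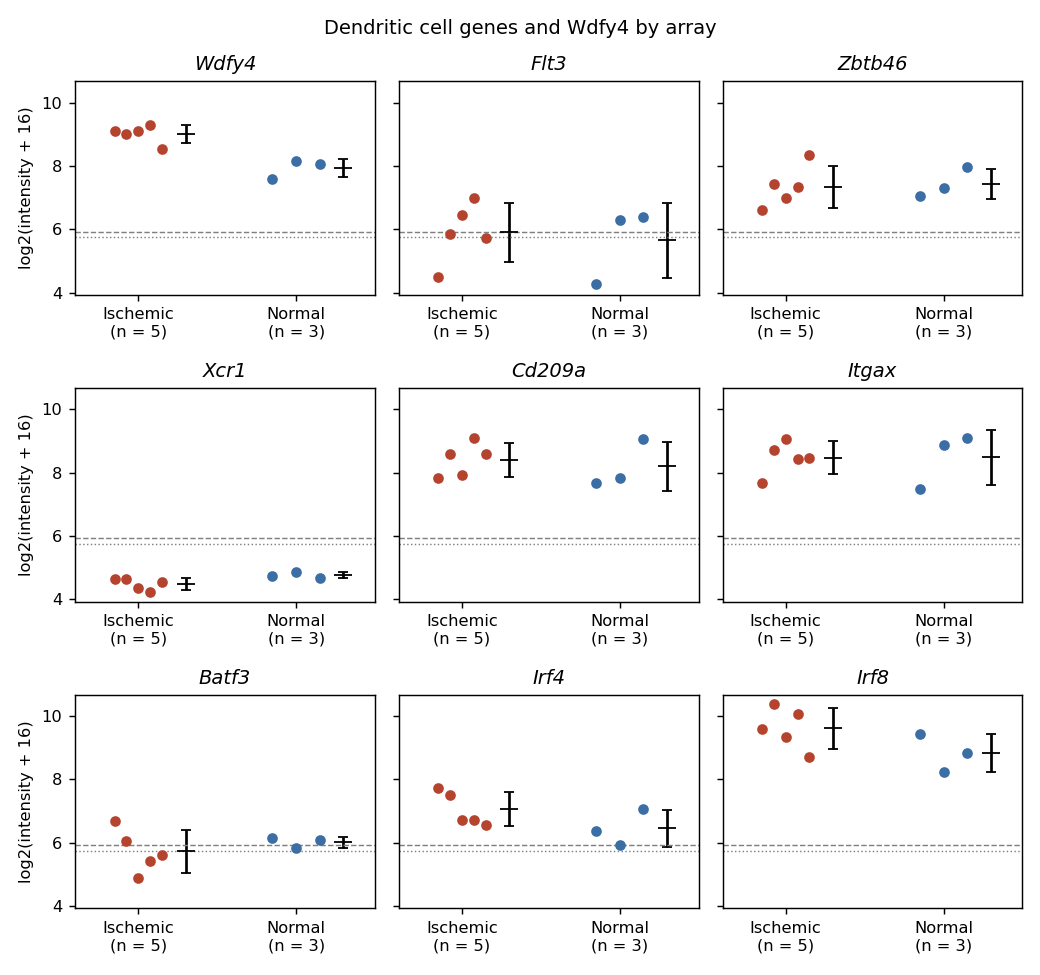
Level of each of the 9 measured genes (y axis, log2(intensity + 16)) in the 5 ischemic (red, left) and 3 normal (blue, right) arrays. Black marks are group means with SD, the dashed line is the median level of all genes (5.93) and the dotted line the 95th percentile of olfactory receptor genes (5.75). The Wdfy4 points of the groups do not meet, Xcr1 lies below both lines in all arrays, and the other 7 genes overlap.

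Wdfy4 has a second probe set on the array, and it did not show the difference. Ischemic arrays averaged 4.53 ± 0.36 (SD, n = 5) there and normal arrays 4.55 ± 0.58 (SD, n = 3). Both means lay below the 95th percentile of the olfactory receptor genes (5.75). Whether a change could be seen at this level, and why the 2 probe sets differ, was not tested. The mean of both probe sets differed by 0.53, and its groups overlapped. Within the arrays of high Xist signal the Wdfy4 means were 9.06 (ischemic, 2 arrays) and 7.60 (normal, 1 array), and within those of low signal 8.98 (ischemic, 3 arrays) and 8.11 (normal, 2 arrays). With 1 array left out, the Wdfy4 difference ran from 0.89 (without normal 1) to 1.20 (without ischemic 5), and it was 1.05 without ischemic 1.

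The general markers of conventional dendritic cells had overlapping levels in the 2 groups, with wide intervals of the difference. Flt3, the receptor for the growth factor that sustains dendritic cell precursors, had levels of 4.50, 5.86, 6.45, 6.98 and 5.73 in ischemic arrays 1 to 5, against 4.27, 6.29 and 6.39 in normal arrays 1 to 3. Ischemic 1 and normal 1 were both close to the floor of the scale, and the remaining arrays of both groups overlapped. Flt3 averaged 5.81 over the 8 arrays, just above the 95th percentile of the olfactory receptor genes (5.75) and below the median of all genes (5.93). The Flt3 difference was 0.25 ± 0.65 (SE), with a 95% interval from −1.24 to 1.74.

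Zbtb46, a transcription factor that among leukocytes is largely confined to conventional dendritic cells and that endothelium also expresses, had levels of 6.60, 7.44, 6.98, 7.33 and 8.36 in ischemic arrays 1 to 5, against 7.03, 7.31 and 7.96 in normal arrays 1 to 3. Ischemic 5 was the highest and ischemic 1 the lowest of all 8 arrays, so the normal arrays lay inside the ischemic range. The difference was −0.096 ± 0.41 (SE; 95% interval −1.03 to 0.83). The 3 other Zbtb46 probe sets differed by −0.42, 0.11 and 0.19, each with overlapping groups.

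Itgax, the CD11c chain that macrophages of many tissues also carry, had levels of 7.66, 8.71, 9.07, 8.43 and 8.48 in ischemic arrays 1 to 5, against 7.49, 8.87 and 9.09 in normal arrays 1 to 3. Normal 3 was the highest and normal 1 the lowest of all arrays. The difference was −0.0099 ± 0.44 (SE; 95% interval −1.01 to 0.99), so a change of about 2-fold in either direction lies within the interval. The direction of these 3 genes depended on single arrays: Flt3 stood at −0.44 without normal 1 and −0.013 without ischemic 4, Zbtb46 at 0.090 without ischemic 1 and 0.17 without normal 3, and Itgax at 0.19, 0.18 and 0.29 without ischemic 1, normal 2 and normal 3 and at −0.50 without normal 1.

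Xcr1 lay at background and Batf3, like Flt3, close to it. Xcr1, the receptor for the chemokine Xcl1, had levels of 4.66, 4.64, 4.36, 4.24 and 4.56 in ischemic arrays 1 to 5, against 4.73, 4.87 and 4.68 in normal arrays 1 to 3. All 8 values lay below the 95th percentile of the olfactory receptor genes (5.75). The Xcr1 groups did not overlap on the normalized scale, with a difference of −0.27 ± 0.20 (SE), but they did in the deposited intensities, which were 2.65 to 13.62 in ischemic and 9.87 to 11.64 in normal arrays. Batf3 averaged 5.84 over the 8 arrays, just above that percentile, with levels of 6.68, 6.06, 4.88, 5.41 and 5.63 in ischemic arrays 1 to 5, against 6.16, 5.83 and 6.09 in normal arrays 1 to 3. Its ischemic values lay on both sides of the normal ones, highest in ischemic 1 and lowest in ischemic 3, and the difference was −0.29 ± 0.39 (SE; 95% interval −1.17 to 0.59). That difference was −0.080 without ischemic 3 and −0.55 without ischemic 1.

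Cd209a, a C-type lectin of cDC2 and of monocyte-derived cells, was bright. Its levels were 7.83, 8.60, 7.91, 9.08 and 8.58 in ischemic arrays 1 to 5, against 7.68, 7.85 and 9.07 in normal arrays 1 to 3. Normal 3 lay next to ischemic 4, the highest array, and the difference was 0.20 ± 0.41 (SE; 95% interval −0.74 to 1.15). It stood at 0.64 without normal 3, −0.055 without normal 1 and −0.050 when ribosomal protein genes set the centre of each array.

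The Irf factors had the largest differences after Wdfy4, with overlapping groups. Irf8, which cDC1, plasmacytoid cells, monocytes and B cells use, had levels of 9.60, 10.37, 9.34, 10.06 and 8.71 in ischemic arrays 1 to 5, against 9.42, 8.22 and 8.85 in normal arrays 1 to 3. Ischemic 3 and ischemic 5 lay below normal 1, the highest normal array, and the other 3 ischemic arrays lay above it. The Irf8 difference was 0.79 ± 0.42 (SE; 95% interval −0.18 to 1.75), and its other probe set differed by 1.09, with overlap through ischemic 1 (8.32) and normal 3 (8.43). The Irf8 difference was 0.48 without normal 2, 1.07 without normal 1 and 0.46 with arrays centred by ribosomal protein genes.

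Irf4, which acts in cDC2, activated B cells and plasma cells, had levels of 7.74, 7.52, 6.73, 6.72 and 6.57 in ischemic arrays 1 to 5, against 6.38, 5.92 and 7.08 in normal arrays 1 to 3. Ischemic 1 and ischemic 2 stood above all normal arrays, and the other 3 ischemic arrays lay below normal 3. The Irf4 difference was 0.60 ± 0.38 (SE; 95% interval −0.27 to 1.46), with 0.44 without ischemic 1, 0.32 without normal 2 and 0.91 without normal 3. Its other probe set differed by 0.45. For the 8 genes other than Wdfy4, limma's adjusted p over all genes ran from 0.822 to 0.998.

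**Figure D2:**
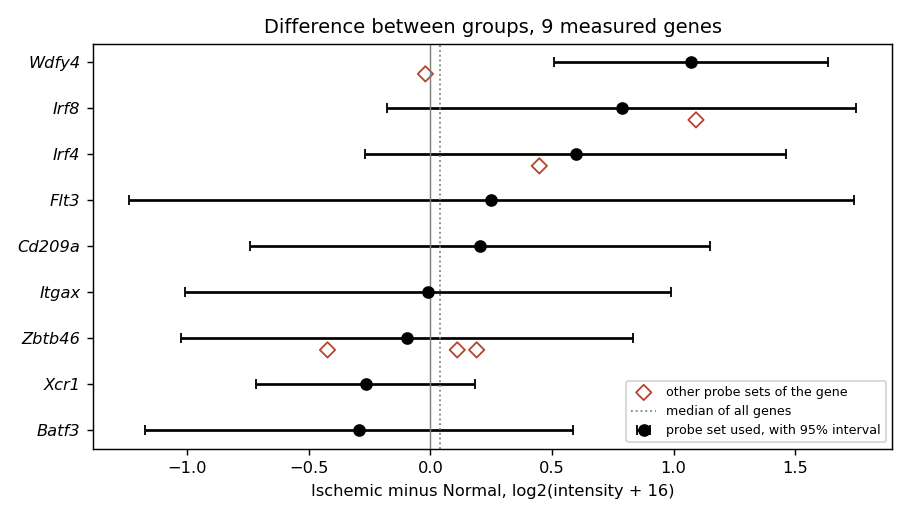
Difference between 5 ischemic and 3 normal arrays for the 9 measured genes (x axis, log2(intensity + 16), ischemic minus normal). Black points are the probe set used with the 95% interval from limma, open diamonds the other probe sets of the gene, and the dotted line the median of all genes (0.041). The Wdfy4 interval runs from 0.51 to 1.64 and is shown as a description, since the gene was picked for this difference, and the other 8 intervals cross 0.

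The genes whose values over the 8 arrays were nearest to those of Wdfy4 are given as a description. Likeness was measured as the root mean square difference of values centred on each gene's mean, over the 9096 other genes at or above the median level. The 8 nearest were Coro1a (0.192), an actin regulator of leukocytes, Rab3il1 (0.198), Gpr65 (0.214), a proton-sensing receptor of leukocytes, Pld4 (0.216), Lst1 (0.217), Ly86 (0.217), which partners the Toll-like receptor relative Cd180, Ccr2 (0.222), the chemokine receptor of inflammatory monocytes, and Rinl (0.223). Wdfy4 itself varied by 0.576 on the same measure. Like Wdfy4, these genes had their lowest level of all 8 arrays in normal 1 and their lowest ischemic level in ischemic 5, apart from Rab3il1 (6.35 in ischemic 2 and 6.42 in ischemic 5). Since group and array both enter the measure, the likeness includes the difference between groups for which Wdfy4 was picked.

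The 8 other genes of the set spread widely in this measure. Irf4 lay nearest, at 0.546 (rank 2638 of 18192 genes), then Irf8 at 0.573 (rank 3697), Cd209a at 0.685 (rank 7726), Xcr1 at 0.722 (rank 8789) and Itgax at 0.738 (rank 9190). Zbtb46 at 0.872 (rank 12080), Flt3 at 0.873 (rank 12093) and Batf3 at 0.874 (rank 12118) lay farthest. Irf4 and Irf8 alone among the 8 lay nearer to Wdfy4 than a gene with no variation would. By the same measure the nearest genes were Actl6a (0.157), Tatdn2 (0.189) and Lyst (0.191) for Irf8, and Arhgap15 (0.199), Ep300 (0.205) and Ammecr1l (0.206) for Irf4. Lyst belongs to the BEACH family, as Wdfy4 does. For Itgax they were Svil (0.201), Plcg2 (0.205) and Adam17 (0.217), for Zbtb46 Nfat5 (0.218), Nbdy (0.231) and Dstyk (0.232), and for Cd209a Snord104 (0.224), Tacc1 (0.268) and Ssr3 (0.279).

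**Figure D3:**
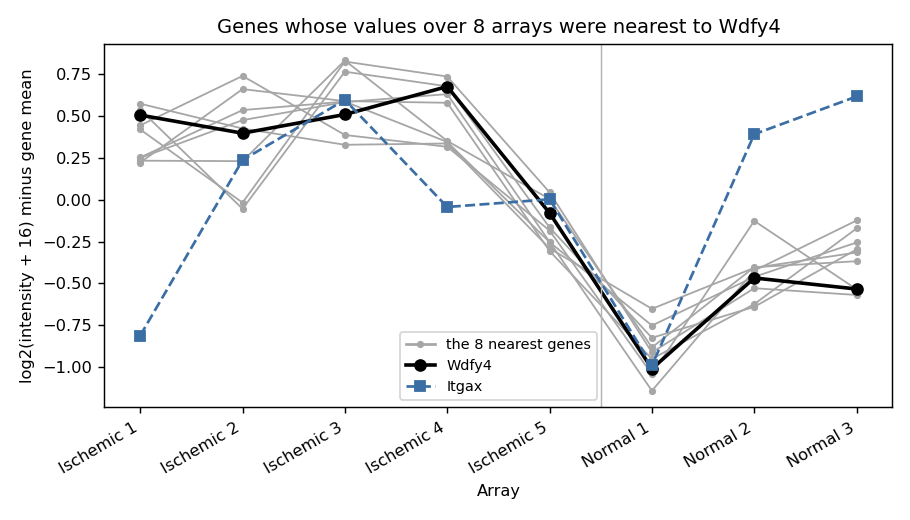
Values of Wdfy4 (black), its 8 nearest genes (grey) and Itgax (blue, dashed) in the 8 arrays (x axis), each as log2(intensity + 16) minus the gene's mean over the arrays (y axis). Lines join the values of a gene and imply no order of arrays. All 9 solid curves are lowest in normal 1, and Itgax is lowest in normal 1 and highest in normal 3.

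Other genes of the dendritic cell subsets were likewise not called by limma, which called 0 of all 18193 genes (0%). A list without a call, here and below, therefore says nothing about that list. Of 11 further cDC1 genes measured, 0 rose and 0 fell at an adjusted p of 0.05. Positive differences were found for 7 (54.8% of all genes had one), and the median was 0.34. Cadm1, an adhesion molecule of cDC1, had levels of 9.74, 10.43, 9.81, 10.41 and 9.26 in ischemic arrays 1 to 5, against 9.16, 9.08 and 9.20 in normal arrays 1 to 3. It was the only gene of these 11 with groups apart, where 1.89% of all genes had every ischemic array above every normal array. Cadm1 differed by 0.78 ± 0.30 (SE; limma adjusted p = 0.607, not past the threshold). The 4 negative differences of the list ran down to −0.92 ± 0.41 (SE) for Id2. Cadm1 and Id2 fall outside the rule for named genes and were chosen after their values were seen. The brightest of the list were Cd24a at −0.25 ± 0.39 (SE) and Nfil3, a transcription factor in cDC1 development, at 0.91 ± 0.48 (SE), neither past the threshold. The cDC1 median was 0.17 without ischemic 1, 0.57 without ischemic 5 and 0.070 in the 5 arrays of low Xist signal. Of these 11 genes, 10 lay above the 95th percentile of the olfactory receptor genes.

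Of 12 cDC2 genes measured, 0 passed limma, 8 had positive differences, and the median was 0.19. That median was −0.19 without normal 1, 0.58 without normal 3, −0.029 in the arrays of low Xist signal and −0.057 with centring on ribosomal protein genes. The brightest were Notch2, a receptor that splenic cDC2 need, at 0.22 ± 0.31 (SE) and Klf4 at 0.15 ± 0.46 (SE). Cd209d, a lectin encoded near Cd209a, was the only gene of this list with groups apart (1.89% of all genes were apart in that direction). It differed by 0.69 ± 0.23 (SE; limma adjusted p = 0.483) and was likewise chosen after its values were seen. Cd209d was dim: it averaged 6.04 over the 8 arrays. Its values in normal 1 (5.47) and normal 2 (5.49) lay below the 95th percentile of the olfactory receptor genes (5.75). The 4 negative differences of the list ran down to −1.70 ± 1.24 (SE) for Esam, also named after its values were seen. Of 11 plasmacytoid genes measured, 0 passed, 10 had positive differences (54.8% of all genes had one), and the median was 0.27. The brightest were Tcf4, the factor that sets plasmacytoid identity, at 0.27 ± 0.37 (SE) and the chemokine receptor Ccr9 at 0.31 ± 0.81 (SE). The mean level of the plasmacytoid list was highest in ischemic 2 (7.91) and ischemic 4 (7.64), and lowest in ischemic 5 (6.71). Irf8 had the same highest and lowest ischemic arrays, but in normal arrays its order was the reverse: the list was lowest in normal 1 (6.73) and highest in normal 2 (7.03), where Irf8 was highest (9.42) and lowest (8.22). The list's median was 0.064 without ischemic 2.

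The genes of antigen presentation and maturation were also without a call, like all 18193 genes. Of 10 class II presentation genes measured, 0 passed limma, 9 had positive differences (54.8% of all genes had one), and the median was 0.23. That median was 0.14 without ischemic 1 and −0.060 in the arrays of low Xist signal. The brightest, Cd74 and H2-Ab1, differed by −0.025 ± 0.25 and 0.00036 ± 0.26 (SE). Of 11 genes of mature dendritic cells, 0 passed and the median was 0.10. It was −0.0057 without normal 1, 0.29 without normal 3, −0.11 with ribosomal centring, 0.48 with the filter on dim genes and 0.53 with the probe set of largest SD. Among them Cd83, a surface marker of maturation, stood at 0.86 ± 0.34 (SE; limma adjusted p = 0.618) and Cd40, the receptor for T cell help, at −0.066 ± 0.49 (SE). Of 7 ligands and growth factor receptors measured, 0 passed and the median was 0.34, with Csf2rb and Csf2ra, chains of the GM-CSF receptor, at 1.08 ± 0.63 and 0.63 ± 0.55 (SE). This last median was −0.0061 without normal 1 and −0.025 in the arrays of low Xist signal. The ligand of Flt3 had no probe set with 1 symbol and was not analysed here.

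Relatives of the Irf and Batf factors and of Wdfy4 had no call either, like all 18193 genes. Of 8 other Irf and Batf family genes, 0 passed limma, 6 had positive differences, and the median was 0.46 (0.20 without normal 1), with Irf1 at 0.52 ± 0.31 and Irf5 at 0.41 ± 0.38 (SE). Of 9 other BEACH domain genes, 0 passed, 4 had positive differences, and the median was −0.20. In that family Wdfy2 differed by 0.034 ± 0.35 and Wdfy3 by −0.28 ± 0.46 (SE). The BEACH median was 0.0073 without ischemic 1, 0.12 with array weights and 0.080 in the arrays of low Xist signal.

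All 14 measured markers of macrophages and monocytes had positive differences, as Wdfy4 did, against 54.8% of all genes. None passed limma, as no gene did. The median was 0.76, and 0.48 without normal 1. The differences ran down to 0.027 (C1qa) and 0.14 (Mertk). Every ischemic array was above every normal array for 4 markers (Adgre1, Fcgr1, Cx3cr1 and Mrc1), against 1.89% of all genes. These 6 were named after their values were seen. Their summed intensity ran from 17532 to 26625 in ischemic and from 11649 to 14697 in normal arrays, without overlap. All 14 lay above the 95th percentile of the olfactory receptor genes. The brightest, Lyz2 and Csf1r, differed by 0.38 ± 0.23 and 0.64 ± 0.29 (SE). Their part in the Wdfy4 difference was not tested.

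Markers of B cells, which also express Wdfy4, varied between arrays in another way. Of 14 measured markers, 13 had positive differences, against 54.8% of all genes. The median of the 14 was 0.58. It was 0.048 without ischemic 1, 1.003 without normal 1 and −0.027 in the arrays of low Xist signal. None passed limma, and 8 lay above the 95th percentile of the olfactory receptor genes. Their summed intensity ran from 529 to 7056 in ischemic and from 602 to 1004 in normal arrays. The mean level was 8.51 in ischemic 1 and 6.80 in ischemic 2, between 5.18 and 5.50 in the other 3 ischemic arrays, and between 5.29 and 6.25 in normal arrays. Wdfy4 stood at 9.11, 9.005, 9.12, 9.28 and 8.53 in ischemic arrays 1 to 5, and at 7.60, 8.14 and 8.07 in normal arrays 1 to 3. Irf4 was highest in ischemic 1 and ischemic 2. Within the arrays of high Xist signal (2 ischemic, 1 normal) its difference was 1.25. Within those of low signal (3 ischemic, 2 normal) it was 0.17. Batf3 was highest in ischemic 1, and its differences within those strata were 0.21 and −0.65. The part of B cell RNA in these values was not tested.

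All 8 measured tubule markers had negative differences, where 54.8% of all genes had a difference above 0. The median was −2.66, and none passed limma, as no gene did. For 7 of them every ischemic array lay below every normal array, against 3.44% of all genes. The summed intensity of all 8 was 490 to 2033 in ischemic and 7171 to 12239 in normal arrays. The highest named, Umod and Slc34a1, differed by −1.87 ± 0.33 and −3.88 ± 0.97 (SE). Values on an array are relative to its other RNA, and the part of this shift in the Wdfy4 difference was not tested.

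**Figure D4:**
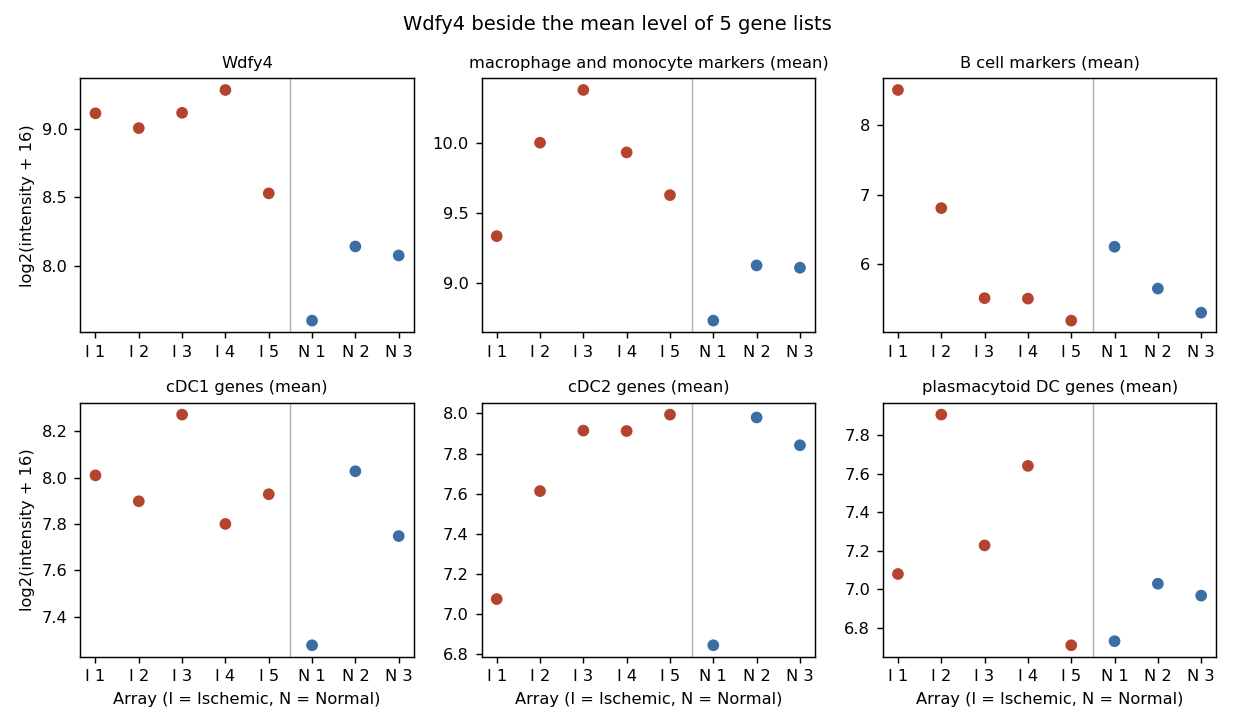
Level of Wdfy4 and mean level of 5 gene lists in each array (x axis), as log2(intensity + 16) (y axis, scaled per panel), with the 5 ischemic arrays in red on the left and the 3 normal arrays in blue on the right. The macrophage and monocyte mean separates the groups as Wdfy4 does, the B cell mean is high in ischemic 1 (8.51), and the 3 dendritic cell lists overlap between groups.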

How the data were processed

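Gene expression was measured on Affymetrix mouse expression arrays. Per the labels' protocols, a Qiagen miRNeasy kit yielded the RNA and NuGEN WT-Ovation Pico amplified it. The authors deposited linear probe set intensities for 8 arrays. How they were computed and scaled is not given in the sources used here. Precision is limited by the number of arrays.

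Sample titles gave the groups. Intensities were taken as log2(value + 16) and quantile normalized without the 64 control probe sets. Of 45101 probe sets, 34945 had 1 gene symbol, 932 several and 9160 none, and a gene was its probe set of highest mean, without a brightness filter. Groups were compared with limma 3.58.1 (R 4.3.3), p values being adjusted over 18193 genes by Benjamini-Hochberg with a threshold of 0.05, in a step tested on simulated data. Figures used matplotlib 3.10.9 in Python 3.11.15.

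The members and the 14 other gene lists were chosen with earlier results of these data known. Named genes were the members, genes of the array checks, the 2 brightest of each list and, by root mean square difference, the 8 genes nearest to Wdfy4 and the 3 nearest to each other member at or above the median level. Promoters are printed for 4 of the genes, and motif matches given for all. Alternatives were other normalizations, pseudocounts of 1 and 64, a filter at the 40th percentile, other probe set rules, eBayes with trend or robust, array weights, the replicate number as a block, Xist signal as a covariate and each array left out. The fit on the arrays of low Xist signal alone was added after the data were seen.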

Additional observations from a re-analysis of the deposited data

Results flagged for a closer look

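Of 42 named genes checked in the ischemic group, 2 had an array far from the other 4 by Dixon's 95% critical value (0.71), a level at which chance alone also flags some groups. Fcrla, a B cell gene, was at 10.87 in ischemic 1, against 5.38 to 6.61 in the other ischemic arrays. Irf5, a relative of Irf4 and Irf8, was at 7.54 in ischemic 5, against 8.36 to 8.60 in the others.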

How the results depend on the processing

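Wdfy4 kept a positive difference in all 22 alternatives, from 0.53 with the mean of its probe sets to 1.20 without ischemic 5, and from 0.89 to 1.20 with 1 array left out. It was the only gene of the 9 with every ischemic array above every normal array, against 1.89% of all genes. That count was 0 with the mean of all probe sets, and ran from 1 to 2 with 1 array left out, the 2 without normal 3. None of the 9 measured genes, Wdfy4 included, passed limma under any of these alternatives. The 0 genes past the threshold over all genes became 148 with arrays centred on ribosomal protein genes, 31 with eBayes trend, 15 with the filter on dim genes, 5 with array weights, 2 with no normalization, 2 with the mean of probe sets, 1 with a pseudocount of 1 and 1 with Xist as a covariate, and ran from 0 to 112 with 1 array left out, the 112 without normal 3. The cause was not tested. The 1297 genes with an unadjusted p under 0.05 were 805 without normal 1. Centring on ribosomal protein genes moved the median of all genes to −0.078, from 0.041. Xcr1 stood at −0.74 with a pseudocount of 1 and −0.089 with 64, and its groups overlapped with centred or unnormalized arrays. Same-numbered arrays of the groups had deviations correlated at 0.16, −0.088 and 0.10 across genes, so the numbers were not taken as pairs. With the replicate block, Wdfy4 differed by 1.14 and 0 genes passed. The sign of Flt3, Zbtb46, Cd209a and Itgax changed in 3, 3, 4 and 5 of 22 alternatives.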

Other observations

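Lists of other leukocytes had no call by limma, which called 0 of all 18193 genes (0%). A positive difference was found for 54.8% of all genes. Of 9 measured T and NK cell markers, 4 had positive differences and the median was −0.00037 (−0.63 without normal 3 and 0.63 without normal 1), with Cd3e at 0.17 ± 1.11 and Cd3g at 1.02 ± 1.10 (SE). Their mean level was 7.11 in ischemic 1 and 6.93 in normal 1 and lay between 4.85 and 5.98 in the other 6 arrays. Of 4 neutrophil markers, 1 had a positive difference and the median was −0.30 (−0.66 without ischemic 3 and −0.0081 without normal 2), with S100a9 at −0.91 ± 0.82 and S100a8 at −0.52 ± 0.98 (SE). Of 9 fibroblast markers, 7 had positive differences and the median was 0.49 (0.19 without ischemic 5 and 0.87 without ischemic 1), with Col1a2 at 0.93 ± 0.73 and Thy1 at −0.011 ± 0.41 (SE).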
